A study of Branchiostoma lanceolatum with 6 samples.

Results

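The anterior archencephalon cells are a class of 245 cells among the 14586 cells of an atlas of the Mediterranean amphioxus *Branchiostoma lanceolatum* at the neurula stage. They were taken as the cells that the deposited annotation calls HyTh, which are the cells of metacells 35, 36 and 53, a metacell being a small group of cells with like expression. The atlas was made from wild-type embryos at 21 hours post-fertilization, raised at 19 °C, which were pooled, dissociated with an enzyme and sorted as live single cells into plates, with a gate against doublets, for MARS-seq. MARS-seq attaches a random tag, the unique molecular identifier (UMI), to each mRNA molecule before amplification, and counting tags in place of reads removes duplicates made by PCR. The labels list 2 scRNA-seq samples, S1 and S2, but the names of the cells do not tell them apart, so all cells form 1 pooled sample with no biological replicate, and no test between groups of cells was possible. The 4 ATAC-seq samples of the series were not analysed here.

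In amphioxus the front end of the neural plate forms the cerebral vesicle, and the archencephalon is its anterior territory, set beside the hypothalamic and prethalamic forebrain of vertebrates. In vertebrates this territory is marked by transcription factors of the *Fezf*, *Otx*, *Six3/6* and *Nr2e1* families, and it forms where Wnt signalling is held low by secreted antagonists. It is a source of FGF ligands and later gives rise to peptide-secreting neurons. *Ctfp1* encodes a calcitonin family peptide, *Arpd2* a homeodomain transcription factor and *Fezf* a zinc finger transcription factor. These 3 genes were taken as the markers of the label.

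Anterior archencephalon cells made up 1.68% of the cells of the atlas and held 597482 of its 31802996 UMIs. They had a median of 2200 UMIs (483 to 8184) and 1185 genes per cell, and none exceeded 4 times the median of the class. They came from all 40 plates, with 1 to 13 cells on each. The metacells differed in depth, with a median of 3474 UMIs in the 59 cells of metacell 35, 2879.5 UMIs in the 92 cells of metacell 36 and 1101 UMIs in the 94 cells of metacell 53. The classes set beside them were the 1243 other neural cells (class neural, median 2401 UMIs), the 38 cells of the Di-Mesencephalic primordium (DiMes, 2827 UMIs), which lies behind the archencephalon in the cerebral vesicle, and the 3189 anterior epidermis cells (2061 UMIs). A level below is the summed UMIs of a gene per 10,000 UMIs of all genes in a group, given with its exact Poisson 95% interval where one is printed. Folds are ratios of levels, and all intervals cover counting error only.

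The 3 markers were higher in anterior archencephalon cells than in every other class of the annotation. *Ctfp1* (BLAG03000807) had a level of 22.6 there, against 0.335 in all other cells, a fold of 67.6 (62.3 to 73.3). The next class, the 30 cells of neural_like1, had 6.84. *Arpd2* (BLAG02001048) had 4.54, and its next class was the endoderm with 0.728. *Fezf* (BLAG05001154) had 2.29, followed by DiMes with 1.47, whose interval of 0.839 to 2.38 overlapped that of the anterior archencephalon cells, so these neighbours in the order did not differ beyond counting error. The study recognized this territory by *Ctfp1*, *Arpd2*, *Fezf*, *Otx*, *Fgf8/17/18*, *Celf3/4/5/6* and an FGF receptor gene, so the levels of these genes and of *Fgfrl* describe the label and do not test it, here and in the lists that follow.

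**Figure D1:**
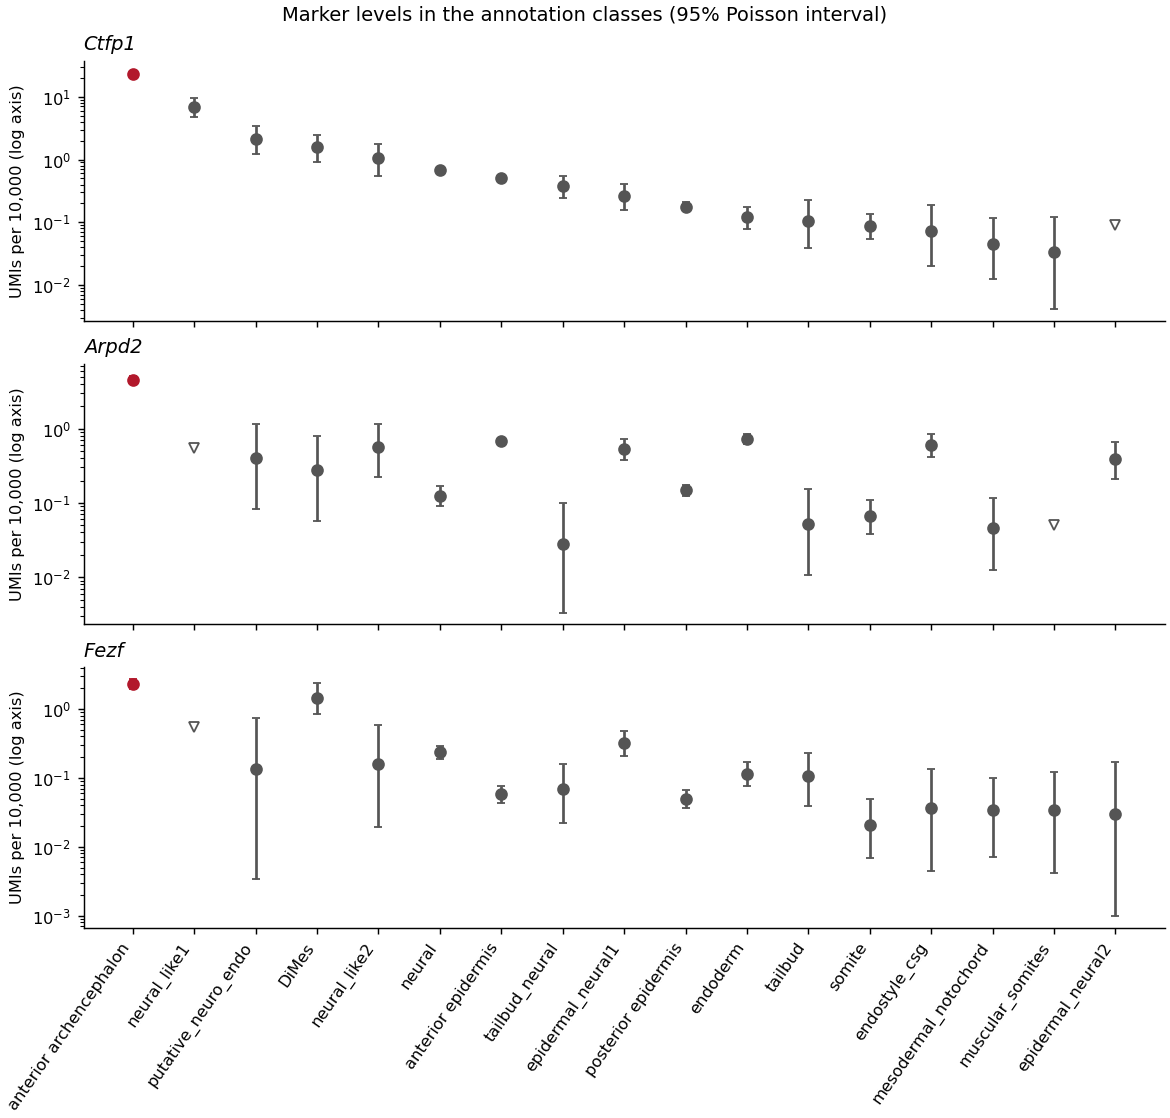
Level of Ctfp1, Arpd2 and Fezf in each annotation class (UMIs per 10,000, log axis), with points for summed levels, bars for exact Poisson 95% intervals and open triangles at the limit of 3 UMIs for classes with 0 UMIs. Anterior archencephalon cells (red) have the highest level in all panels, with 22.6, 4.54 and 2.29, and DiMes comes closest for Fezf with 1.47.

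Metacell by metacell the summed level of *Ctfp1* was high in all 3, while the other markers were uneven. *Ctfp1* had levels of 19.9, 24.5 and 23.0 in metacells 35, 36 and 53, which were the 3 highest of all 176 metacells. *Arpd2* had 2.35, 5.32 and 6.50 in metacells 35, 36 and 53, where metacells 53 and 36 ranked first and second and metacell 35 came seventh, behind 3 metacells of the anterior epidermis and 1 of the endoderm. *Fezf* had 3.84 in metacell 36 and 2.14 in metacell 53, the 2 highest of the atlas. In metacell 35 it had only 0.293, from 6 UMIs in 59 cells, which ranked 15th and lay near the 0.235 of neural cells. Metacell 35 thus had a high summed level of *Ctfp1* and a lower one of *Arpd2*, without the *Fezf* level of the other metacells. In metacell 35, 6 of the 59 cells held 336 of the 407 *Ctfp1* UMIs, and 34 cells had 0. Without metacell 36 the *Fezf* level of the class would be 0.965.

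At least 1 UMI of *Ctfp1* was found in 99 of the 245 cells (40.4%, exact Clopper-Pearson interval 34.2% to 46.8%), against 1.76% of the posterior epidermis cells (median 1246 UMIs), which served as a background. *Arpd2* was found in 38.8% and *Fezf* in 31.4% of the anterior archencephalon cells, against 1.73% and 0.657% of posterior epidermis cells. With each cell thinned to 500 UMIs, which left out 1 anterior archencephalon cell and 548 posterior epidermis cells, the shares were 29.5% and 0.834% for *Ctfp1*, 13.5% and 0.784% for *Arpd2*, and 9.43% and 0.200% for *Fezf*. Some other classes had higher shares than this background. After thinning, *Fezf* was found in 4 of 37 DiMes cells (10.8%), so its share did not set the class apart from DiMes. *Ctfp1* was found in 4 of 27 neural_like1 cells (14.8%) and *Arpd2* in 4.11% of anterior epidermis cells. A UMI of any of the 3 markers was seen in 173 cells of the class (70.6%), all 3 were seen together in 21 cells, and 72 cells had none.

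The level of *Ctfp1* was carried by a minority of the cells. Had its 1352 UMIs been spread evenly in proportion to depth, 234 cells would have held at least 1, where 99 did. The 24 cells with most *Ctfp1* held 1042 of these UMIs, or 77.1%, and the highest cell had 162. In all, 57 cells had 5 or more UMIs, 42 cells had 1 to 4 and 146 cells had 0. *Arpd2* was found in 95 cells where 149 would be reached by an even spread, and *Fezf* in 77 where 98.4 would be, with 56.1% and 56.9% of their UMIs in their own 24 highest cells. Such percentages run high for genes with few UMIs, and *Six3/6*, with 22 UMIs, had 100%. Within metacells 35, 36 and 53 *Fezf* lay nearer an even spread, in 6, 52 and 19 cells where 5.67, 60.5 and 21.5 would be. *Nr2e1*, a nuclear receptor, was found in 44 cells where 88.9 would be, with 80.7% of its UMIs in its 24 highest cells. In metacell 36, which held 99 of its 119 UMIs, it was found in 31 cells where 58.4 would be. *Celf3/4/5/6*, which encodes RNA-binding proteins that regulate splicing in neurons, was found in 165 cells, against 226 for an even spread. Cells rich in *Ctfp1* occurred in each metacell, 12, 28 and 17 of them in metacells 35, 36 and 53.

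**Figure D2:**
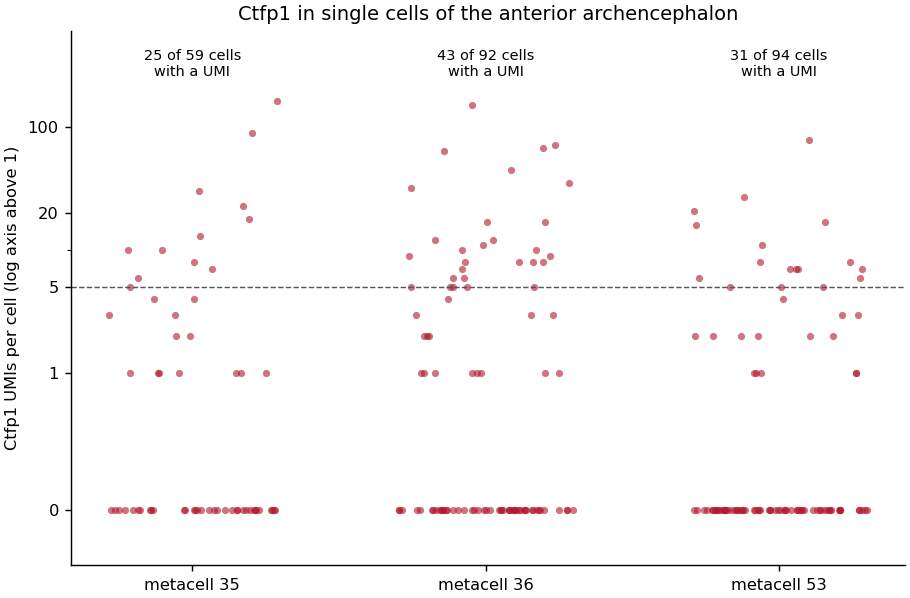
UMIs of Ctfp1 in each anterior archencephalon cell, by metacell (vertical axis logarithmic above 1, cells jittered sideways). Most cells lie at 0, and the cells above the dashed line, 12, 28 and 17 of them in metacells 35, 36 and 53, have 5 or more UMIs, up to 162 in metacell 35.

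Over the whole profile, anterior archencephalon cells were most like the other neural cells. Across 4733 genes, each with 1000 UMIs or more over all cells, the Spearman correlation of their levels was 0.919 with neural cells, 0.869 with tailbud neural cells, 0.858 with DiMes and 0.37 with the anterior epidermis, which describes these pools only, since they differ in depth and share plates. Genes were compared where the higher of both levels gave at least 50 UMIs in the smaller pool, and called at 2-fold or more. Against neural cells 2619 genes entered, of which 136 (5.19%) were higher and 117 (4.47%) lower in anterior archencephalon cells, 9.66% in all, while without metacell 36 the balance turned to 80 higher and 101 lower. Against all other cells 453 of 2880 genes (15.7%) were higher and 543 (18.9%) lower, and with equal weight per cell the balance turned to 648 higher and 559 lower. Against the small DiMes pool only 451 genes entered, with 20 (4.43%) higher and 50 (11.1%) lower, or 32 and 66 without metacell 36. The anterior epidermis stood farthest apart, with 1069 of 3075 genes (34.8%) higher and 785 (25.5%) lower in anterior archencephalon cells, 60.3% in all. Without metacell 36 fewer genes entered, and 511 in place of 996 were called against all other cells and 1013 in place of 1854 against the anterior epidermis.

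Of 16 transcription factors of anterior neural territories, 10 entered against neural cells, of which 5 were higher and 3 lower, where 5.19% of all genes were higher and 4.47% lower. The higher genes were *Arpd2* (36.2-fold), *Fezf* (9.74-fold) and *Otx*, by which the class was recognized, and *Nr2e1* and *Foxb*, and nothing is read from their count. *Nr2e1* (BLAG01000223), the orphan nuclear receptor Tailless of forebrain progenitors in vertebrates, had a level of 1.99 in anterior archencephalon cells, against 0.0459 in neural cells, a fold of 43.4 (25.3 to 80.0). Its next class was DiMes with 0.551. *Otx*, a head homeobox gene, had 2.88 in anterior archencephalon cells, 0.682 in neural cells and 3.40 in DiMes, and was higher still in the endoderm (7.41). *Foxb*, a forkhead gene, had 1.21 against 0.150 in neural cells, but 1.48 in the anterior epidermis. *Six3/6* and *Lhx2/9*, which both mark the anterior forebrain and eye field in vertebrates, did not reach the count minimum. They had 0.368 and 0.519 in anterior archencephalon cells, from 22 and 31 UMIs, against 0.0306 and 0.0336 in neural cells. Against the anterior epidermis *Six3/6* came to 1.33-fold (0.817 to 2.06), an interval that includes equal levels, and *Lhx2/9* to 17.3-fold (9.97 to 30.0).

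The lower members of the list were *Gbx*, *Pax2/5/8* and *Prox*. *Gbx*, which in vertebrates sets the hind limit of the *Otx* territory, had 0.201 in anterior archencephalon cells, against 6.97 in neural cells, a fold of 0.0288 (0.0149 to 0.0504). Its level was lower than that of neural cells on each of the 40 plates, on 30 of which the class had 0 UMIs of it. *Pax2/5/8*, a paired box gene of the midbrain-hindbrain region in vertebrates, had 0.0837 against 1.24, and the homeobox gene *Prox* 2.53 against 6.27. *Nkx2.1*, a ventral forebrain gene in vertebrates, lay between the thresholds with 0.770 against 1.25. *Pax4/6* was close to neural cells with 1.07 against 1.15. It was far higher in DiMes, with 18.7 there and a fold of 0.0572 (0.0425 to 0.0761) for anterior archencephalon cells. The study recognized DiMes by *Otx* with *Pax4/6*, so this level describes the label of DiMes.

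Among 14 genes of FGF, Wnt and BMP signalling, 6 entered against neural cells, 4 were higher (5.19% of all genes) and 1 was lower (4.47% of all genes). Of the receptors, *Fgfrl*, an FGF receptor-like gene, had 4.35 in anterior archencephalon cells against 0.437 in neural cells (9.95-fold, 8.08 to 12.3). *Fzd5/8*, a Frizzled receptor for Wnt, had 1.81 against 0.113 (16.0-fold). Against DiMes both receptors were under the count minimum and under 2-fold, *Fgfrl* at 1.90-fold (1.26 to 2.99) and *Fzd5/8* at 1.97-fold (1.03 to 4.22). *Sfrp1/2/5*, a secreted Wnt antagonist, had 3.30 against 0.309 (10.7-fold), while the endoderm (4.95) and the somite (4.00) exceeded both. *Tcf7l2*, a nuclear effector of Wnt signalling, had 2.88 against 1.07. *Chordin*, a secreted BMP antagonist, was the lower gene with 0.469 against 2.35, and *Smad1*, which transduces BMP signals, lay between with 5.14 against 7.43. The ligand *Fgf8/17/18* missed the minimum with 47 UMIs, a level of 0.787 in anterior archencephalon cells, 0.0306 in neural cells and 0 UMIs in DiMes, where a count of 0 allows up to 0.275. The Wnt ligand genes *Wnt1*, *Wnt4*, *Wnt6* and *Wnt8* had 8, 5, 9 and 11 UMIs, and *Wnt16* had 0, which allows a level of up to 0.0502. At the levels of neural cells 17.7, 24.8, 11.3, 23.2 and 1.28 UMIs would be expected in that order. At those of the anterior epidermis 16.5, 3.06, 0.798, 4.26 and 1.73 would be. All 5 genes were under the count minimum in both comparisons, so nothing is read from them.

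**Figure D3:**
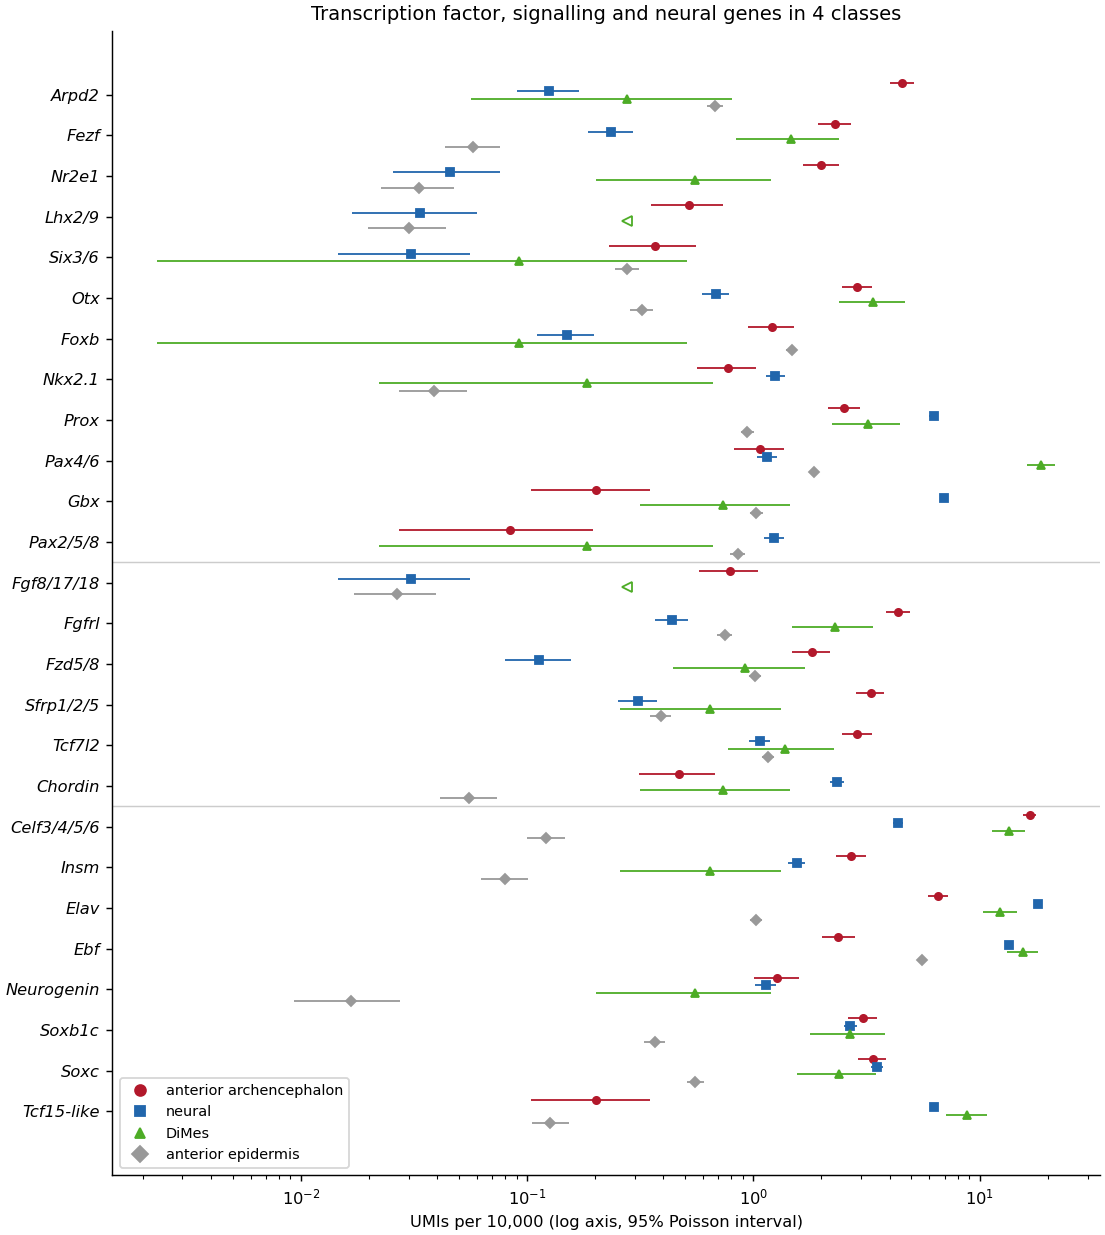
Levels of transcription factors (top), signalling genes (middle) and neural genes (bottom) in anterior archencephalon cells, neural cells, DiMes and anterior epidermis (UMIs per 10,000, log axis). Bars are exact Poisson 95% intervals and open triangles the limit of 3 UMIs where 0 were seen. Arpd2, Nr2e1 and the FGF and Wnt genes lie to the right in anterior archencephalon cells, Gbx (0.201 against 6.97 in neural cells) and Tcf15-like (0.201 against 6.28) to the left.

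Genes of neural progenitors were not higher than in other neural cells. Of 10 members 8 entered against neural cells, where 0 were higher and 4 lower (4.47% of all genes), with a median fold of 0.485 beside 1.0 over all genes entered. *Tcf15-like*, a bHLH gene of the neural plate, had a level of 0.201 in anterior archencephalon cells, 6.28 in neural cells and 8.81 in DiMes. The Notch effector of the Hey family had 3.01 in anterior archencephalon cells against 6.84 in neural cells, a gene of the POU3F4 type 2.41 against 5.84, and *Soxb2* 0.201 against 1.07. *Soxb1c*, the counterpart of vertebrate Sox2 in progenitors, was near the level of neural cells with 3.05 against 2.69, as was *Soxc* with 3.36 against 3.51. *Neurogenin*, the proneural bHLH gene, had 1.27 in anterior archencephalon cells and 1.13 in neural cells, but 0.0167 in the anterior epidermis (76.1-fold).

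Genes of neuronal differentiation went both ways. Of 13 members 8 entered against neural cells, of which *Ctfp1* and *Celf3/4/5/6*, both genes by which the class was recognized, were higher (5.19% of all genes) and *Elav*, *Igfbp* and *Ebf* lower (4.47% of all genes). *Celf3/4/5/6* (BLAG19000228) had 16.6 in anterior archencephalon cells, against 4.35 in neural cells (3.82-fold, 3.52 to 4.14), with 13.5 in DiMes and 0.121 in the anterior epidermis. Part of the neural class was as high, since neural metacell 37 had 19.0, above metacells 35 (10.4) and 53 (9.75) of the anterior archencephalon. *Elav*, an RNA-binding protein of postmitotic neurons, had 6.58 against 18.1 in neural cells, and was lower on 35 of 40 plates. *Ebf*, a transcription factor of differentiating neurons, had 2.38 against 13.4 in neural cells and 15.5 in DiMes. *Insm* and *Myt1*, zinc finger genes of neurons leaving the cell cycle, had 2.71 against 1.55 and 1.36 against 0.982, both under 2-fold. Compared with the anterior epidermis, 6 of the 7 members that entered were higher in anterior archencephalon cells, where 34.8% of all genes were higher.

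Genes of posterior, floor plate and border territories were compared with neural cells, where 4.47% of all genes were lower. Of 8 posterior neural genes only 2 entered, and both were lower in anterior archencephalon cells, *Hox1* with 0.0669 against 1.03 and *Vasa*, a germline helicase gene of the tailbud, with 0.837 against 2.2. Of 5 floor plate genes 2 entered and both were lower, 1 ID of *Foxaa*, a forkhead gene, with 0.10 against 0.972, and *Netrin*, the guidance cue of the ventral midline, 2.33 against 7.4. Of 5 neural plate border genes 3 entered and 1 was lower, *Pax3/7* with 0.134 against 1.65. *Msx* had 0 UMIs, and *Snail* and *Zic* lay near the neural level, with 2.11 against 2.11 and 1.39 against 1.29.

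Markers of other tissues were looked for in the same cells. The 9 epidermis genes summed to 23.0 in anterior archencephalon cells, against 18.4 in neural cells and 368 in the anterior epidermis. All 9 were lower than in the anterior epidermis, where 25.5% of all genes were lower. Against neural cells 6 entered and *Klf1/2/4*, a zinc finger gene, was higher (1.29 against 0.434), where 5.19% of all genes were higher. The keratins *Krt75* and *Krt13*, which define the epidermis, had 8.92 and 5.47 in anterior archencephalon cells, against 205 and 89.3 in the anterior epidermis. The endoderm list summed to 1.86, the notochord list to 0.385 and the tailbud list to 1.27 in anterior archencephalon cells. Of 5 muscle genes 3 had 0 UMIs, and *Mef2*, which was as high in the anterior epidermis, made up 3.15 of their summed 3.23. The part of such transcripts in the results was not tested.

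*Nr2e1*, *Fezf* and *Celf3/4/5/6* were also among the 10 genes with the largest folds over all other cells, beside *Ctfp1* and 6 genes without a name in the study. The first of the 10 was BLAG03000810, with a level of 2.16 in anterior archencephalon cells against 0.0205 in all other cells (105-fold, 77.4 to 144). Against neural cells it again came first, followed by BLAG06000980 with 6.91 against 0.119 (58-fold). Among the 10 lowest against neural cells were *Gbx*, *Tcf15-like*, *Hox1*, *Pax2/5/8* and the RFX4-type gene, a transcription factor gene with 0.0669 against 0.896. Against DiMes the lower genes included, besides *Tcf15-like* and *Pax4/6*, the collagen gene COL4A6 (5.21 against 37.4) and the IGF2-type growth factor gene (0.770 against 5.14).

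The pattern of *Ctfp1* over the 17 classes was most like that of BLAG04000060 (Pearson r = 0.87 of log2 levels) and BLAG04000061 (r = 0.84), 2 genes without a name whose levels in anterior archencephalon cells were 0.720 and 0.686. For *Arpd2*, *Fzd5/8* and *Fgfrl* were among the 5 most alike, and for *Fezf*, *Celf3/4/5/6* was. These are descriptions over 17 pools that share plates and differ in depth.

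The comparison with neural cells was also read plate by plate, because plates are the technical batches of the assay. *Ctfp1* was higher in anterior archencephalon cells on 35 of the 40 plates, *Arpd2* on 36, *Fgfrl* on 36, *Otx* on 32, *Sfrp1/2/5* on 31 and *Fezf* on 28. *Nr2e1* was higher on 21 plates, lower on 4 and equal on 15, where neither group had a UMI of it. *Gbx*, *Ebf* and *Tcf15-like* were lower on all 40. The class had 0 UMIs of them on 30, 12 and 31 of these plates, where any UMI in neural cells makes it lower. With neural cells weighted to the plates of the anterior archencephalon cells, an alternative chosen after seeing the data, 138 genes were higher and 114 lower, beside 136 and 117 without weights.

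The 3 metacells were then set against each other, each against the other 2 together. They were made from these same counts, so the differences are a description. In metacell 35, 39 of 918 genes (4.25%) were higher and 60 (6.54%) lower than in the other anterior archencephalon cells. Metacell 36 had 120 of 1296 (9.26%) higher and 51 (3.94%) lower, and metacell 53 had 29 of 477 (6.08%) in each direction.

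Metacell 35 was low in several anterior and neural genes, though not in *Ctfp1*. Its level of *Netrin* was 0.196, against 3.43 in the other anterior archencephalon cells (0.0570-fold). *Insm* had 0.489 against 3.87, *Nr2e1* 0.440 against 2.80, and *Fezf* 0.293 against 3.33. By metacell, *Soxb1c* had 0.783 in metacell 35, 4.38 in metacell 36 and 3.85 in metacell 53, *Sfrp1/2/5* 1.13, 5.18 and 2.65, and *Fgfrl* 1.86, 6.19 and 4.36. Of the anterior transcription factors 5 entered in this comparison, of which *Arpd2*, *Fezf*, *Otx* and *Nr2e1* were lower in metacell 35 and 0 higher, beside 6.54% and 4.25% of all genes. *Smad1* ran the other way with 7.14, 4.02 and 4.28.

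Metacell 36 held the highest levels of most of these genes. *Nr2e1* had 3.59 there against 0.622 in the other anterior archencephalon cells (5.76-fold, 3.54 to 9.84), with 99 of its 119 UMIs in this metacell. *Celf3/4/5/6* had 24.2 against 10.4 in metacell 35 and 9.75 in metacell 53. *Insm*, *Myt1*, *Lhx1/5*, a LIM homeobox gene of neurons, and *Netrin* were also 2-fold or more higher. The first named gene by fold was CHAF1A, a histone chaperone subunit, with 1.99 (8.0-fold). *Nkx2.1* had 41 of its 46 UMIs in metacell 36 and 0 in metacell 35, and *Nkx2.2*, a ventral neural homeobox gene in vertebrates, had 39 of its 47 UMIs there, both under the count minimum.

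Metacell 53 was the shallowest and had the highest *Arpd2*. *Six3/6* had 1.11 in metacell 53, against 0.254 in metacell 36 and 0.0978 in metacell 35. *Neurogenin* had 3.16, 1.05 and 0.489 in that order. *Fgf8/17/18* had 1.54, 0.833 and 0.293. None of these 3 genes reached the count minimum there. Among genes that did, *Vent2*, a ventralizing homeobox gene, had 11.1 in metacell 53 against 3.75 in the other anterior archencephalon cells (2.97-fold). NHP2, a ribonucleoprotein gene, was 3.11-fold higher, and KLF13 was lower (2.65 against 7.53). The largest fold was that of BLAG01001682 (3.60-fold), which had 109 in the posterior epidermis. BLAG03002016 (3.08-fold) had 736 in the class putative_neuro_endo, whose median was 415.5 UMIs. *Vent2* and NHP2 were also highest in other classes, with 16.3 in the notochord and 6.08 in the endostyle. The epidermis list summed to 30.0 in metacell 53, 22.8 in metacell 35 and 20.2 in metacell 36. The part of depth and of such transcripts in these differences was not tested.

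The metacells were spread unevenly over the plates, and this moved with their differences. On its own 8 fullest plates, metacell 36 had 72.8% of its cells, metacell 35 had 59.3% and metacell 53 had 58.5%, and only 8 plates held all 3. Among genes with a neural value, neural cells weighted to the same plates moved in the same direction for 39 of 39 higher in metacell 35. They did so for 99 of 112 genes higher in metacell 36 and 27 of 29 in metacell 53, with median folds of 1.51, 1.49 and 1.38 in metacells 35, 36 and 53. For genes lower in these metacells they did so for 52 of 57, 47 of 51 and 23 of 28, with medians of 0.632, 0.689 and 0.852. Over all genes compared the medians were 0.995, 1.03 and 0.998. After division by the fold of neural cells, 148 genes were called over the 3 metacells in place of 328, an alternative chosen after seeing the data. In metacell 53 alone 26 were called in place of 58. *Fezf* and *Netrin* stayed low in metacell 35 (0.172-fold and 0.114-fold), and *Insm* and *Netrin* stayed high in metacell 36 (2.82-fold and 2.27-fold). *Nr2e1* came to 4.37-fold in metacell 36, but neural cells held only 15 UMIs of it over all plates, so nothing is read from this value. Other calls were lost by the division. In metacell 36 *Fgfrl* came to 1.04-fold, *Myt1* to 1.18-fold, *Soxb1c* to 1.51-fold, *Lhx1/5* to 1.71-fold and *Celf3/4/5/6* to 1.87-fold, and in metacell 35 *Otx* came to 0.819-fold and *Fgfrl* to 0.621-fold. The neural reference itself differed in regional genes between plates, with *Gbx* at 3.70 on the plates of metacell 35 and 9.44 on those of metacell 36. The make-up of the neural cells and the plate cannot be told apart in this division, so neither can plate and metacell.

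**Figure D4:**
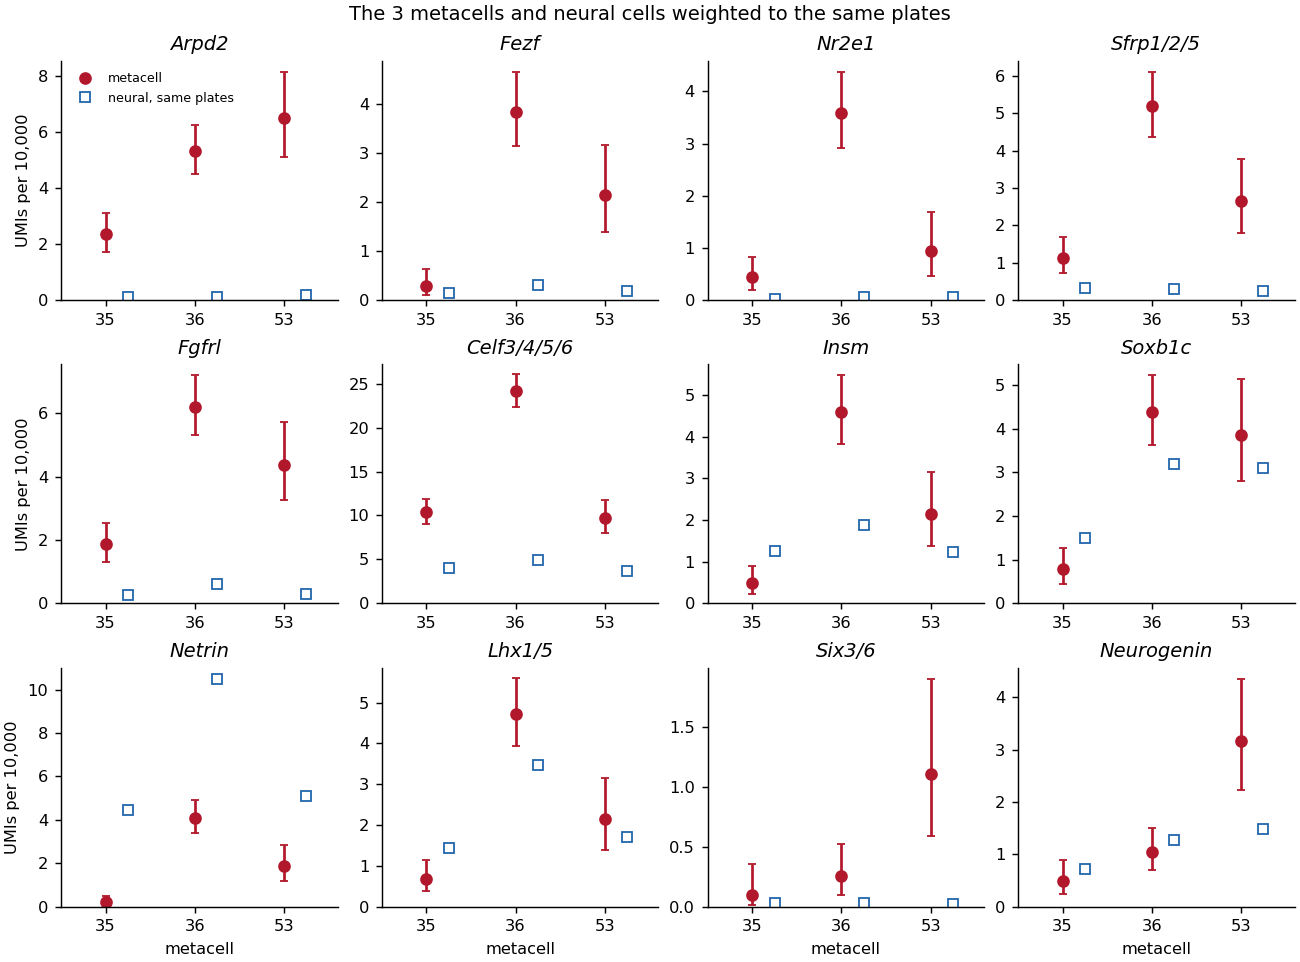
Level of 12 genes in metacells 35, 36 and 53 (red, with exact Poisson 95% intervals) and in neural cells weighted to the plates of each metacell (blue squares), in UMIs per 10,000 on linear axes. Metacell 35 lies lowest for Fezf, Sfrp1/2/5 and Soxb1c, metacell 36 highest for Nr2e1 (3.59) and Celf3/4/5/6 (24.2), metacell 53 highest for Six3/6 and Neurogenin, and the neural squares for Netrin and Lhx1/5 shift with the metacells.

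Cells rich in *Ctfp1* were compared with cells that lacked it inside the class. This split was chosen after the values were seen, and it set 57 cells with 5 or more *Ctfp1* UMIs (median 2706 UMIs, from 29 plates) against 146 cells with 0 (median 1982.5 UMIs). Of 669 genes 21 (3.14%) were higher and 5 (0.747%) lower in the *Ctfp1*-rich cells, with *Ctfp1* itself, which made the split, left aside in what follows. Picking the cells by a *Ctfp1* level of 20 or more gave 19 genes higher and 2 lower. *Insm* had 6.28 in *Ctfp1*-rich cells against 1.56 in cells with 0 (4.02-fold, 2.85 to 5.74), and *Celf3/4/5/6* had 25.1 against 12.5 (2.0-fold, 1.74 to 2.30). The ID printed for *Nhlh1/2*, a neuronal bHLH gene, had 33 UMIs in *Ctfp1*-rich cells and 1 UMI in cells with 0. It is also printed for a Pou3f gene, so its name is uncertain.

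Other genes ran the other way. *Netrin* had 0.690 in *Ctfp1*-rich cells against 3.36 in cells with 0 (0.205-fold, 0.0997 to 0.382), and *Lhx1/5* had 1.63 against 3.42. *Nkx2.1* had 2 UMIs in *Ctfp1*-rich cells and 38 in cells with 0, and *Chordin* 2 and 22. The split was not weighted by plate, and *Netrin* in neural cells had 4.46 on the plates of metacell 35 and 10.5 on those of metacell 36. The part of plates in these differences was not tested. The other markers did not follow *Ctfp1*, since *Arpd2* came to 1.11-fold (0.841 to 1.47) and *Fezf* to 1.27-fold (0.847 to 1.88), and *Elav* to 1.25-fold (0.984 to 1.58), intervals that include equal levels.

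The same split held within single metacells for some of these genes. *Insm* was 3.33-fold (2.27 to 4.96) higher in the *Ctfp1*-rich cells of metacell 36 and 5.58-fold (2.11 to 16.3) in metacell 53. In metacell 35 it had 5 UMIs against 3 (3.93-fold, 0.764 to 25.3), an interval that includes equal levels. *Celf3/4/5/6* was 2.36-fold, 1.74-fold and 1.90-fold higher in metacells 35, 36 and 53. *Netrin* was 0.199-fold in metacell 36 and had 0 UMIs in *Ctfp1*-rich cells against 22 in cells with 0 in metacell 53, but only 1 and 3 UMIs in metacell 35 (0.785-fold, 0.0150 to 9.78). *Lhx1/5* was 0.334-fold (0.186 to 0.566) in metacell 36, while its intervals included equal levels in metacell 35 (1.35-fold, 0.289 to 5.29) and metacell 53 (0.734-fold, 0.214 to 2.03). *Arpd2* was less even, at 0.393-fold (0.135 to 0.941) in metacell 35, 1.20-fold in metacell 36 and 1.58-fold in metacell 53.

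**Figure D5:**
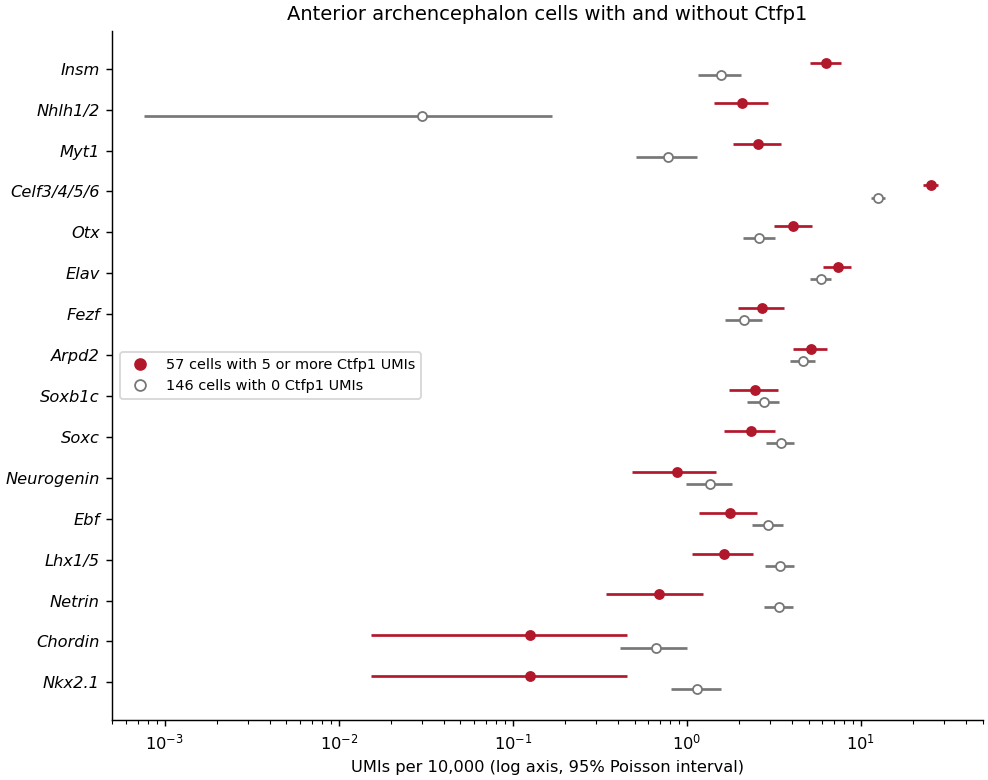
Level of 16 genes in the 57 anterior archencephalon cells with 5 or more Ctfp1 UMIs (red) and the 146 cells with 0 (open), in UMIs per 10,000 on a log axis with exact Poisson 95% intervals. Insm (6.28 against 1.56) and Celf3/4/5/6 (25.1 against 12.5) lie higher in the Ctfp1-rich cells, Netrin (0.690 against 3.36) and Lhx1/5 lower, and Arpd2 and Fezf overlap.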

How the data were processed

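The authors mapped MARS-seq reads with STAR to the *B. lanceolatum* genome, counted UMIs over exons, removed empty wells and 1 poor metacell, and deposited the UMI counts, not normalized. They also deposited the metacell and cell type of each cell, which were used as given. A deposited table of fold changes, a ratio of each metacell to the median over metacells, was not used. Removal of wells and metacells can shift the shares of cells.

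Counts were summed per group and scaled to 10,000 UMIs. Folds have exact conditional binomial intervals, levels Poisson and shares Clopper-Pearson intervals, at 95%. A reference of 0 UMIs was set to 3. Cells are not replicates, so no p-value was computed. Plates were read from the cell names. No doublet caller was run beyond the sorting gate. The scripts (Python 3.11.15, numpy 2.4.6, scipy 1.17.1, pandas 2.3.3) were tested on simulated data.

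The members, the 12 gene lists and the comparisons were chosen with earlier results of these data known. Named genes are the markers, list members with at least 20 UMIs in the class or expected there, the 10 largest folds over all other and over neural cells, the 5 largest per metacell, and the 5 genes most like *Ctfp1*. Unnamed IDs were limited to 2 per direction. The genes of the *Ctfp1* split, the Wnt ligands, the largest folds against DiMes, the genes most like *Arpd2* and *Fezf*, and all names under 20 UMIs were added after their values were seen. Gene names are those printed in the study. Alternatives were the count minimum, cell weighting, the denominator, deep cells, single metacells and plates.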

Additional observations from a re-analysis of the deposited data

How the results depend on the processing

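With a minimum of 20 UMIs the genes called numbered 2082 against all other cells in place of 996, 637 against neural cells in place of 253, 243 against DiMes in place of 70, 3503 against the anterior epidermis in place of 1854, and 1150 between metacells in place of 328. Division by the plate-weighted neural fold gave 148 in place of the last. Without metacell 36, which holds the most UMIs of the 3, the counts were 511 against all other cells and 1013 against the anterior epidermis, with fewer genes entered. Against neural cells it left 80 genes higher and 101 lower in place of 136 and 117, and against DiMes 32 and 66 in place of 20 and 50. Equal weight per cell gave 648 higher and 559 lower against all other cells in place of 453 and 543. The other settings kept each total within 1.5 times, among them equal weight per cell, the denominator without the 10 genes with most UMIs, cells over 4 times their class median left out, and the plate-weighted reference.

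The level of *Ctfp1*, 22.6 as reported, was 20.4 with equal weight per cell, 24.7 without the 10 genes with most UMIs, 24.0 without the 3 plates tied for most cells of the class, 24.0 without metacell 35 and 21.0 without metacell 36. In neural cells it was 0.530 weighted by plate, in place of 0.676. *Arpd2*, 4.54, was 5.67 without metacell 35 and 3.86 without metacell 36. *Fezf*, 2.29, was 3.33 without metacell 35 and 0.965 without metacell 36, so metacell 36 carried most of its level. Thinned to 500 UMIs, the shares of cells were 29.5%, 13.5% and 9.43% for *Ctfp1*, *Arpd2* and *Fezf*. The 57 cells rich in *Ctfp1* could also be picked by a level of 20 per 10,000, which gave 55 cells, 49 of them shared, and 19 genes higher and 2 lower. No paired analysis was possible because the cells cannot be placed in S1 or S2 and no test across samples was made. Depth limits the DiMes pool of 38 cells most, where *Fezf*, *Nr2e1* and *Fgf8/17/18* were under the count minimum.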

Other observations

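The gene with the largest fold in the class, BLAG03000810, was found within the class only in *Ctfp1*-rich cells, a pattern noticed after its values were seen. All 129 of its UMIs in the class lay in 20 of the 57 anterior archencephalon cells with 5 or more *Ctfp1* UMIs, up to 24 in a cell, and 0 lay in the 42 cells with 1 to 4 or the 146 cells with 0. Outside the class these genes were rarely found together. Of the 57 other cells with 5 or more *Ctfp1* UMIs 1 had a UMI of BLAG03000810, while 56 of its 64 UMIs there lay in 43 cells with 0 *Ctfp1* UMIs. The files do not pair this ID with a name, and where it lies relative to *Ctfp1* was not analysed here.

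The ventral homeobox gene *Nkx2.2*, placed here in the endoderm list, had 47 UMIs in the class and a level of 0.787, against 0.0153 in neural cells and 0.994 in the endoderm.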
